A study of Homo sapiens with 12 samples.

Results

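Some of the RNA that the J2 antibody pulled from NCI-H1944 cells came from very long stretches of the genome, counted as single regions of 20000 bp or more on 1 strand. These regions were selected by length alone, on chromosomes 1 to 22 and X, and numbered 10620 of 5254113 regions in the table. Against the GENCODE annotation of GRCh38 (hg38), 9491 lay antisense to a gene, 341 lay between genes, and 788 held at least 1 base of a gene on their own strand and were classed as other. A region was antisense when it held at least 1 base of a gene on the opposite strand and none on its own. The 3 shortest members had 20001, 20005 and 20010 bp, with 23, 105 and 43 reads over all libraries. The 3 longest regions left out had 19997, 19996 and 19994 bp, with 96, 6 and 15283 reads.

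NCI-H1944 is a human lung adenocarcinoma line, and J2 is an antibody that binds double-stranded RNA. Cells were IFNAR1 knockout (IFNAR1sg) or wild type (SCR), IFNAR1 being a subunit of the type I interferon receptor. In each genotype cells received MPS1i (BAY-1217389, which inhibits the spindle checkpoint kinase MPS1) at 100 nM for 48 h followed by washout and 24 h of culture, IFNb (interferon beta) at 5 ng/ml during those 24 h, or DMSO. Each of the 6 groups had 2 libraries, 12 in all, and the design note names double-stranded RNA driven by type I interferon, once MPS1 has been inhibited briefly, as the subject. The sources used here do not say whether the knockout was a clone or a pool. The labels do not say that replicates were separate cultures, so p-values measure the spread between these libraries, which may be technical. Without input RNA, not analysed here, an altered amount of RNA and an altered double-stranded part cannot be told apart.

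A duplex forms when transcripts of both strands of a locus meet, or when inverted copies of a repeat such as Alu lie in 1 transcript. Cytosolic sensors of such RNA, among them RIG-I (gene RIGI) and MDA5 (gene IFIH1), switch on type I interferon. Such RNA also activates the OAS enzymes, which make oligoadenylates that activate RNase L. Interferon in turn acts through its receptor on promoters that hold the interferon response element, whose core letters are GAAANNGAAA. Long RNA on the unannotated strand can be an antisense transcript of its own, or the continuation of an upstream gene past its end.

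Short windows of the genes beside the leading regions are shown here because those genes name the regions. In 4 of the 10 coding genes with a promoter in the RefSeq table among the 15 opposite the regions that led the rise, the promoter window (300 bp, GRCh38.p14) held GAAANNGAAA on either strand, in 5 of their 19 promoters (26.3%). Overlapping matches were counted, and the rest of those 10 genes had no match in that window. The genes of the 15 without a promoter in the RefSeq table were not searched. The motif was in 1255 of all 35116 promoters, 3.57%, and in 0 of the 5 promoters of 3 genes opposite the regions that led the fall. Capitals mark the match, and each sequence is written along the gene's strand.
OAS3, chr12:112938321-112938350: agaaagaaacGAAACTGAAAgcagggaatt
OAS3, chr12:112938452-112938481: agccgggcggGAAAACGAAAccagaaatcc
IFIT1, chr10:89392497-89392526: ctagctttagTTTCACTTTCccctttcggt
IFIT1, chr10:89392510-89392539: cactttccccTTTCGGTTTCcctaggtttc
IFI44, chr1:78649761-78649790: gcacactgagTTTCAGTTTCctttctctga
IFI44L, chr1:78620274-78620303: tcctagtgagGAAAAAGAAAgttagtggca
The OAS3, IFI44 and IFI44L windows lay inside the long region of the other strand, and the IFIT1 windows lay just outside theirs. The IFI44L window occurred 2 times in that promoter, 164 and 73 bases before the gene start.

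For 3 regions that began just past the end of a gene on their own strand, the last 30 bases of that gene's transcript are shown from GENCODE, with the polyadenylation signal AATAAA in capitals where it was present.
MDM2, chr12:68850657-68850686: aatcAATAAAatttgttattcagaacaaaa
RIGI, chr9:32455705-32455734: gacccaatacaaatggattatttaaaccaa
ATPSCKMT, chr5:10226330-10226359: catctttaactaaacttataaaaattggtc
MDM2 held AATAAA in this window, and RIGI and ATPSCKMT did not hold these letters in their last 30 or 50 bases.

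The libraries held 3739443 to 7430687 reads. Both SCR IFNb libraries stood apart, since 295367 and 296843 regions had reads in them and 566704 to 935974 did in each of the other 10 libraries. Their scaling factors were 0.768 and 0.781, against 0.953 to 1.11 in the other 10. Results on IFNb in SCR cells rest on those libraries and cannot be given without them. In a region of IFNAR1 used to check the genotype, IFNAR1sg libraries had 1.64 to 3.33 CPM and SCR libraries 8.65 to 11.7 CPM, where CPM is the count scaled to library size with TMM factors. Of 11 lung epithelium markers, 9 had reads, and the list summed to 97.0 to 162 CPM, with KRT19 and NKX2-1 at 0. Fibroblast markers (8 of 10 with reads, COL1A2 and PDGFRA at 0) summed to 21.9 to 24.0 CPM in SCR MPS1i, 7.52 to 8.92 in SCR IFNb and 2.32 to 4.33 in SCR DMSO, and in IFNAR1sg to 18.5 to 21.01 in MPS1i, 4.58 to 5.44 in IFNb and 3.33 to 3.35 in DMSO. Immune markers (6 of 12 with reads, the lineage markers MS4A1, CD14 and CD68 at 0) summed to 6.22 to 12.003 CPM in the 4 MPS1i libraries, 0.850 to 3.76 in the 4 IFNb libraries and 1.11 to 1.75 in the 4 DMSO libraries. The part of these levels in the changes below was not tested, and in bulk samples fewer cells of a type and less RNA per cell cannot be told apart. The marker levels are of RNA bound by J2, and 19287 of all 5254113 regions shared an exon base with a gene of their strand. A marker at 0 therefore does not show that the gene was not expressed.

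The long regions together spanned 668 Mb, with a median length of 43635 bp and a maximum of 688411 bp. Of the members, 6104 were 20 to 50 kb long, 2850 were 50 to 100 kb and 1666 were longer. They held 12.5% of all reads at 13.4 reads per kb over the 12 libraries, below the 38.8 reads per kb of all regions. Antisense members had 12.04 reads per kb, intergenic members 25.1 and other members 33.1. Shorter antisense regions, under 20000 bp, had 21.5 reads per kb. Reads were uneven: the median member had 3.58 reads per kb, 411 members had over 100, and the 100 members with most reads held 25.04% of the reads of all members. No read at all was found in 204 members, and 7357 had reads in every library. The filter on low counts left 7311 members for testing, 68.8% of them (6579 antisense, 117 intergenic and 615 other), and counts of calls below cover only those.

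The genes opposite were mostly coding: 8650 of the 9491 antisense members had a protein-coding gene as their opposite gene and 420 a lincRNA. Nearly all (9483) covered exon bases of that other strand, with a median of 6.41% of their length, 5455 lay wholly inside the genes opposite, and 2830 spanned a whole gene. On their own strand, 2729 antisense members had a gene ending within 5 kb upstream (28.8%), and 1201 within 1 kb. Intergenic members were more isolated, with a median of 162968 bp to the upstream gene and 13 within 5 kb. Of the 788 other members, 478 shared an exon base with a gene of their strand, 308 of them at most 2 bases, and 769 also had a gene opposite. Alu elements were named in 10343 members (97.4%), with a median of 12 Alu names among 48 repeat names. With a class set by genes covering at least 50% of the region, 9784 were antisense, 503 intergenic and 333 other.

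The members with the highest levels faced coding genes. The region opposite SMOX, the spermine oxidase gene (chr20:4119654-4192196, minus strand), had the highest mean level, 2594 and 2457 CPM in SCR MPS1i, 2399 and 2626 in SCR IFNb and 1922 and 2476 in SCR DMSO. In IFNAR1sg it had 1949.7 and 2044 CPM in MPS1i, 1879 and 1202 in IFNb and 1293 and 1090.5 in DMSO. The region opposite PKM, the pyruvate kinase gene (chr15:72197260-72231687, plus strand), was densest at 2281 reads per kb, followed by one opposite IGFBP4 and past TNS4 (2029), one opposite PABPC1 (1749) and one opposite ENO1, the enolase gene (1650.0). The longest members were sparse: 688411 bp opposite CCSER1 held 191 reads, 632209 bp opposite ESRRG 172, 622692 bp opposite STS 2792, 584080 bp opposite GRIK2 853 and 569345 bp opposite PARD3 974.

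Across antisense members the level was related to that of the strand opposite. Over 9141 antisense members with reads on both strands, Pearson's r between the log10 reads per kb of the member and of the sense regions of the gene opposite that share no exon base was 0.59. The member's density was a median of 0.11 of the sense density (quartiles 0.04 and 0.33), and it was above it in 765. Tested antisense members were split by the share of their length opposite annotated exons into 3 groups of 2193. The group with the highest share had 41.9 reads per kb, the middle group 17.1 and the lowest 6.18. These groups also differed in length, with medians of 32717, 52076 and 84710 bp in that order. Split by length instead, members of 20 to 50 kb had 34.4 reads per kb, those of 50 to 100 kb 17.5 and those of 100 kb or more 5.72. The separate parts of exon share and length in the density were not tested. Median log2 changes with MPS1i at the lowest, middle and highest share were 0.44, 0.31 and 0.32 in SCR and 0.69, 0.58 and 0.53 in IFNAR1sg. The deposited table does not tell whether sense reads were assigned to the wrong strand, and the part of such reads in these levels was not tested. These are descriptions across regions that share libraries, and regions are not replicates.

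**Figure D1:**
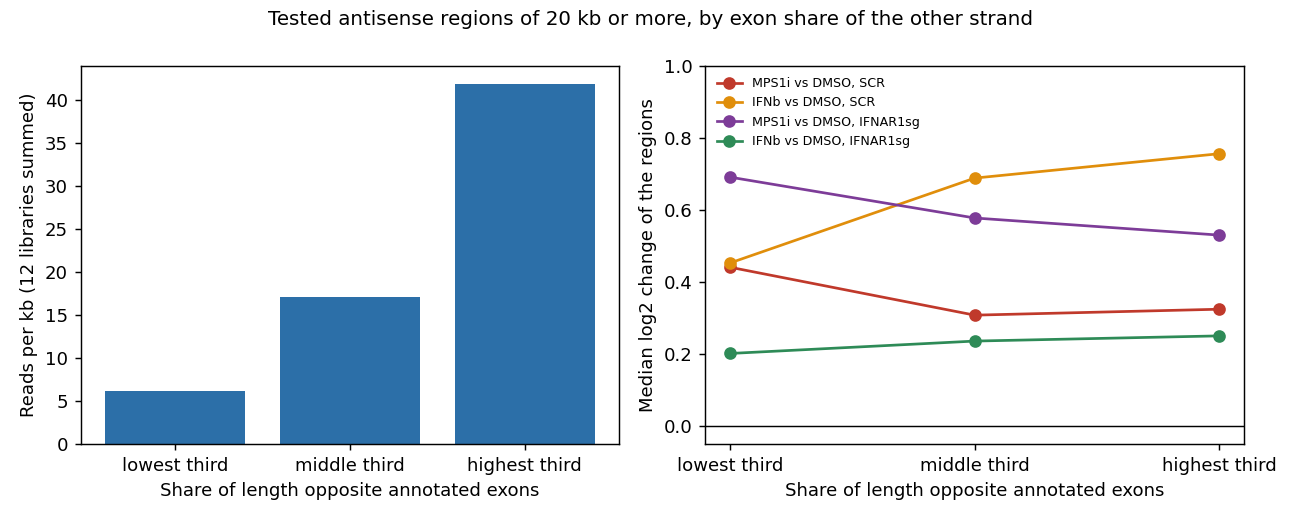
Tested antisense regions of 20 kb or more in 3 equal groups by the share of their length opposite annotated exons. The groups also differ in length, with a median of 84710 bp at the lowest share and 32717 bp at the highest. Left, reads per kb summed over 12 libraries, highest (41.9) in the group of highest share; right, the median log2 change of each group in the 4 treatment contrasts, in which the IFNb median in SCR is 0.76 at the highest share and 0.45 at the lowest under TMM scaling, while the MPS1i medians are highest at the lowest share (0.44 in SCR and 0.69 in IFNAR1sg).

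The share of a library's reads in the long regions was 12.3% and 14.3% in SCR MPS1i, 15.6% and 16.6% in SCR IFNb and 10.7% and 14.0% in SCR DMSO. In IFNAR1sg it was 11.6% and 14.3% in MPS1i, 12.6% and 10.9% in IFNb and 10.3% and 10.3% in DMSO. Antisense members carried most of these shares. The IFNb libraries of SCR stood above all others for antisense and other members and below all others for intergenic members. SCR MPS1i and SCR DMSO overlapped, because SCR DMSO replicate 2 (14.0%) lay above replicate 1 (10.7%) and among the MPS1i libraries. In IFNAR1sg the MPS1i libraries and the IFNb libraries each lay above both DMSO libraries. No test was made on these shares.

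**Figure D2:**
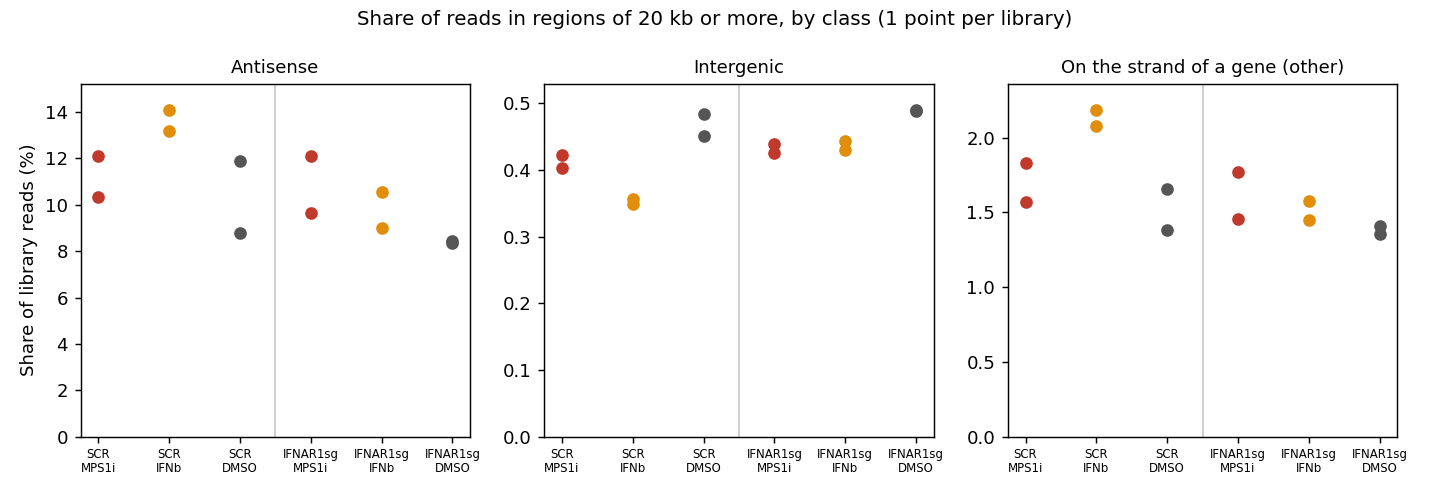
Share of library reads, in percent, in regions of 20 kb or more by class, with 1 point per library and groups along the axis. SCR IFNb is highest for antisense members (13.2% and 14.1%) and for other members, and lowest for intergenic members (0.357% and 0.349%).

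After the MPS1i pulse in SCR cells, long RNA antisense to antiviral genes and past the end of RIGI and MDM2 rose. The region past RIGI, the gene of the RNA sensor RIG-I, began 714 bp beyond the end of that gene and ran across ACO1, the cytosolic aconitase gene on the other strand (chr9:32384578-32454991, minus strand, 70414 bp). It had 593 and 514 CPM in SCR MPS1i, against 39.5 and 48.8 in SCR DMSO. Both MPS1i libraries lay far above both DMSO libraries, a log2 change of 3.65 ± 0.15 (SE, n = 2 per group, adjusted p = 3.6e-33, edgeR). The non-exon regions of RIGI itself changed by 2.70 (adjusted p = 7.3e-43), while those of ACO1 changed by 0.36 (adjusted p = 0.19).

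The region opposite OAS1, OAS3 and OAS2, which encode the oligoadenylate synthetases that sense double-stranded RNA, overlapped all 3 genes (chr12:112908678-113014032, minus strand, 105355 bp). It was classed as other because it touched 1 exon base of a gene on its own strand. It had 1136 and 1332 CPM in SCR MPS1i and 105 and 149 in SCR DMSO, a log2 change of 3.28 ± 0.14 (adjusted p = 1.7e-32). OAS3 itself rose by 2.62. Opposite MX2, an interferon-induced GTPase that restricts viruses (chr21:41361814-41410216, minus strand), the level was 90.9 and 112 CPM in SCR MPS1i and 4.33 and 4.45 in SCR DMSO, 23.1-fold higher (4.53 ± 0.23, adjusted p = 1e-28). The groups did not overlap in either region.

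Other interferon-induced genes faced long regions that rose in the same comparison. Opposite OASL, which has an OAS-like domain (chr12:121017758-121039244, plus strand), the level was 55.01 and 64.8 CPM in SCR MPS1i and 2.67 and 6.58 in SCR DMSO (3.72 ± 0.26, adjusted p = 3.5e-20). Opposite IFI44L and IFI44 (chr1:78617720-78664568, minus strand) it was 48.2 and 62.4 CPM against 3.83 and 6.004 (3.51 ± 0.25, adjusted p = 2.5e-20). Both regions had no overlap between groups. Opposite CMPK2, a mitochondrial nucleotide kinase, the change was 3.83 ± 0.28. A region opposite TRIM22 that lay on the strand of TRIM5, both antiviral ubiquitin ligases, changed by 3.78 ± 0.22. One opposite IFIT1, whose product binds viral RNA ends, lay on the strand of LIPA and changed by 2.88 ± 0.22.

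Regions past MDM2 and opposite RGS12 also led the rise. The region that began 3216 bp past MDM2, the ubiquitin ligase induced by p53, and ran opposite the carboxypeptidase M gene (chr12:68853902-68886318, plus strand) had 187 and 179 CPM in SCR MPS1i and 27.5 and 26.5 in SCR DMSO. Both MPS1i values were higher, by 2.76 ± 0.18 (adjusted p = 5e-22), while the non-exon regions of MDM2 changed by 0.29 (adjusted p = 0.0093). Opposite RGS12, a regulator of G-protein signalling (chr4:3342934-3439912, minus strand, 96979 bp), the level was 113 and 106 CPM in SCR MPS1i and 6.16 and 7.94 in SCR DMSO (3.96 ± 0.22, adjusted p = 1.6e-25). RGS12 itself changed by 0.19 (adjusted p = 0.31).

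**Figure D3:**
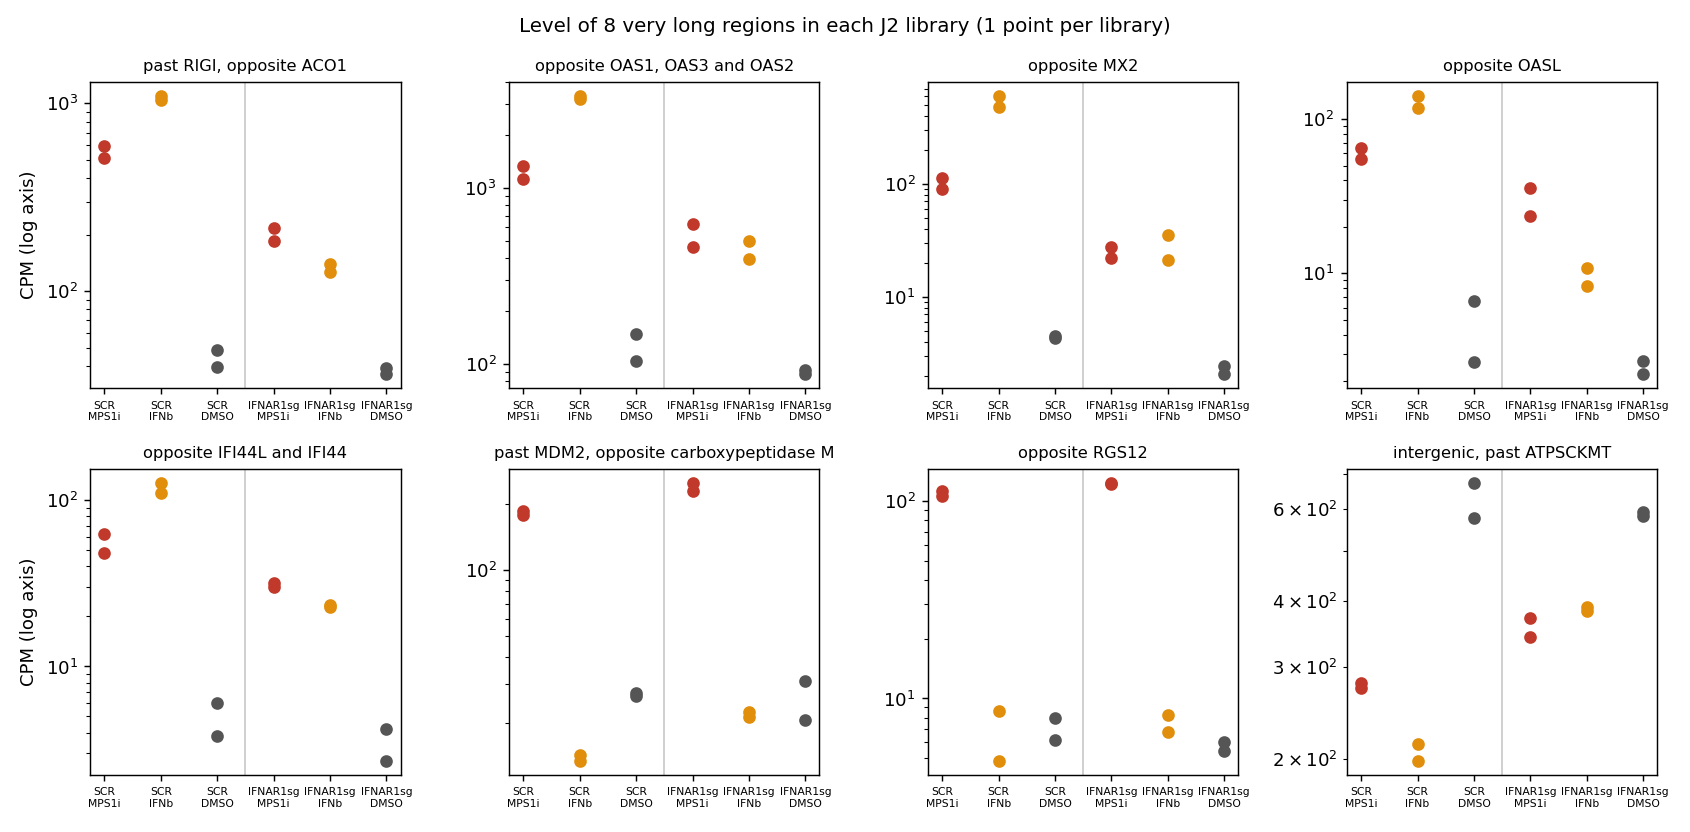
Level in CPM (log axis) of 8 long regions in each library, 1 point per library, with SCR groups left and IFNAR1sg groups right of the line. Regions opposite OAS1 to OAS2, MX2, OASL and IFI44L and past RIGI are high in both MPS1i and IFNb libraries, those past MDM2 and opposite RGS12 are high in MPS1i libraries alone, and the intergenic region past ATPSCKMT is lower in MPS1i and IFNb than in DMSO libraries.

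The regions that led the fall with MPS1i included 2 between genes and 1 directly past a gene's end. The intergenic region 823 bp past ATPSCKMT, a methyltransferase gene (chr5:10204688-10225507, minus strand, 20820 bp), had 273 and 279.6 CPM in SCR MPS1i and 674 and 577 in SCR DMSO. Both MPS1i libraries were lower (-1.18 ± 0.13, adjusted p = 3.3e-11), and the non-exon regions of ATPSCKMT changed by -1.46 (adjusted p = 4e-12). A second intergenic region (chr1:188778620-188822685, minus strand) had 43.6 and 36.1 CPM in SCR MPS1i and 106 and 104 in SCR DMSO (-1.40 ± 0.18). Directly past GPSM2, a gene of spindle orientation (chr1:108934546-108963587, plus strand), the change was -1.38 ± 0.18. Opposite KCNN1, a potassium channel gene, it was -1.34 ± 0.19, and KCNN1 itself changed by 1.35 (adjusted p = 0.025). A region on the strand of LINC02211 changed by -0.92 ± 0.13, and one on the strand of CLNS1A opposite the aquaporin gene AQP11 by -1.31 ± 0.20.

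Over all tested members, 1252 of 7311 were higher in SCR MPS1i and 120 lower, with a median log2 change of 0.35. Over all 89111 regions tested, 9.55% were higher and 7.97% lower, with a median of -0.03. Members rose in 17.1% and fell in 1.64%, and the median tested member had 421 reads against 145 for all tested regions, a difference in depth whose part in these counts was not tested. Without scaling factors 847 were higher and 224 lower (median 0.18), and with library sizes set to the members' own totals, which centres them, 552 and 235 (median 0.05). Antisense members (1132 higher and 89 lower of 6579, median 0.35) were close in median to antisense regions under 20000 bp (1318 and 144 of 8633, median 0.41). Intergenic members were called higher in 19 and lower in 10 of 117, and other members in 101 and 21 of 615. In either direction 1372 members were called, against 17.5% of all regions, with 642 called without SCR MPS1i replicate 2 and 762 without SCR DMSO replicate 1.

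**Figure D4:**
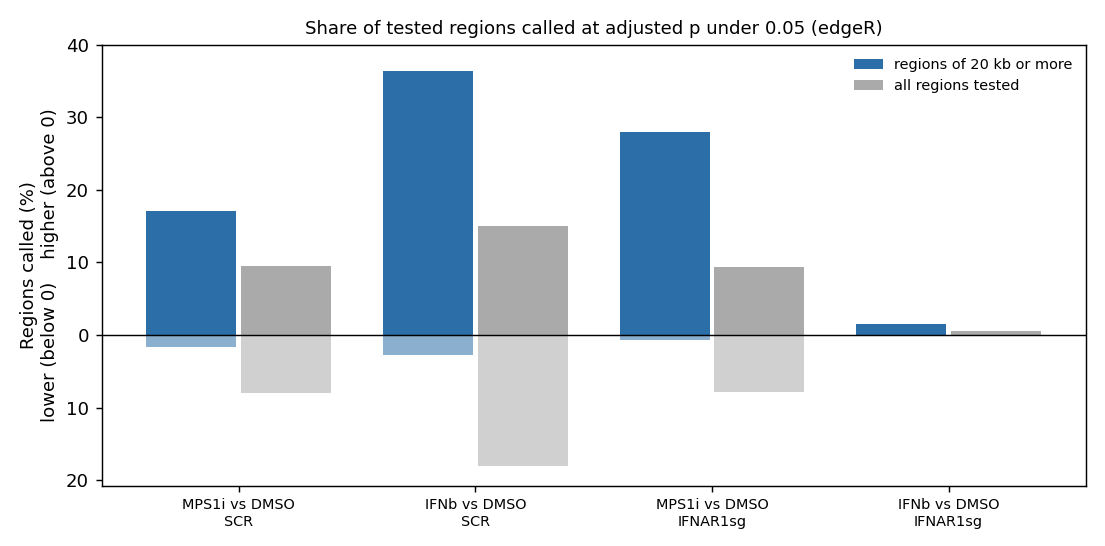
Share of tested regions, in percent, called higher (above 0) or lower (below 0) at adjusted p under 0.05 in 4 contrasts, for regions of 20 kb or more (blue) and all regions tested (grey). With TMM scaling the long regions were called higher in 17.1% (MPS1i in SCR), 36.3% (IFNb in SCR), 28.0% (MPS1i in IFNAR1sg) and 1.52% (IFNb in IFNAR1sg); without factors the higher and lower calls of IFNb in SCR were 1098 and 616.

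After IFNb in SCR cells, regions beside antiviral genes again led the rise. SCR IFNb libraries had 1093 and 1042 CPM past RIGI, 3211 and 3338 opposite OAS1 to OAS2 and 484 and 599.6 opposite MX2. SCR DMSO libraries had 39.5 and 48.8, 105 and 149 and 4.33 and 4.45 CPM in the same regions. None of these groups overlapped, and the log2 changes were 4.60 ± 0.16, 4.69 ± 0.15 and 6.94 ± 0.23 (largest adjusted p = 1.4e-39). Opposite TRIM22 the change was 6.13 ± 0.22, opposite CMPK2 5.72 ± 0.27, opposite OASL 4.83 ± 0.26 and opposite IFIT1 4.29 ± 0.22. A region on the strand of MIA3, a cargo receptor gene, lay opposite AIDA (chr1:222668007-222712519, plus strand) and had 286 and 271 CPM in SCR IFNb against 22.99 and 25.95 in SCR DMSO (3.51 ± 0.18), while AIDA itself changed by -0.16 (adjusted p = 0.66).

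Past MDM2 the direction with IFNb was opposite to that with MPS1i, with which it shares the DMSO libraries. SCR IFNb had 13.4 and 14.3 CPM, below the 27.5 and 26.5 CPM of SCR DMSO (-0.96 ± 0.22, adjusted p = 0.00037). Opposite RGS12 the level was 4.83 and 8.65 CPM in SCR IFNb and 6.16 and 7.94 in SCR DMSO, which overlap (-0.06 ± 0.31, adjusted p = 0.9). The falls past ATPSCKMT (-1.60 ± 0.13), past GPSM2 (-1.56 ± 0.19) and opposite KCNN1 (-1.83 ± 0.21) were called with IFNb as well. A region on the strand of PHF3 opposite EYS changed by -1.88 ± 0.19 with IFNb.

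A group of the regions that fell with IFNb carried many MSTA repeats, long terminal repeats of an endogenous retrovirus family. In 4 members at least 10 repeat names were MSTA and made up at least 50% of the names, a set singled out after its values were seen, and none of the 4 named an Alu. On chromosome 13 (chr13:18756582-18806380, minus strand) the level was 3.72 and 4.89 CPM in SCR IFNb and 35.3 and 29.4 in SCR DMSO (-2.91 ± 0.30). On chromosome 18 (chr18:14276050-14330508, plus strand) it was 25.3 and 37.2 CPM against 127 and 96.6 (-1.84 ± 0.19). On chromosome 22 (chr22:11910363-11939013, plus strand) it was 236 and 238 CPM against 627 and 568 (-1.33 ± 0.13), and on chromosome 21 (chr21:13853459-13905333, minus strand) 16.7 and 18.1 against 43.5 and 44.5 (-1.34 ± 0.21). In each of the 4 both SCR IFNb libraries lay below both SCR DMSO libraries. In IFNAR1sg the changes with IFNb were -0.93 ± 0.21, -0.32 ± 0.17, -0.50 ± 0.12 and -0.44 ± 0.18 in that order. They were called on chromosomes 13 and 22, and neither call was made without IFNAR1sg DMSO replicate 2 or without IFNAR1sg IFNb replicate 1. The sources used here do not say how reads that map to several copies were counted, so these regions may share reads.

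In all, 2657 of 7311 members were higher and 205 lower in SCR IFNb, with a median of 0.64, against 15% and 18.1% of all regions tested and a median of -0.36. Members were higher in 36.3% and lower in 2.80%. Antisense regions under 20000 bp also rose more often than they fell, with 2300 higher and 482 lower of 8633 (26.6% and 5.58%). Their median was 0.55, beside 0.65 for antisense members. The balance depends on scaling: without factors 1098 were higher and 616 lower (median 0.15), and with library sizes set to the members' own totals 482 and 851 (median -0.07). Intergenic members were evenly split, 18 higher and 18 lower of 117, while 2395 antisense members were higher and 144 lower. In either direction 2862 members were called, against 33% of all regions, with 1714 called without SCR DMSO replicate 1 and 1876 without SCR IFNb replicate 2.

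In IFNAR1sg cells MPS1i raised long antisense RNA as well. IFNAR1sg MPS1i libraries had 217 and 186 CPM past RIGI, 464 and 627 opposite OAS1 to OAS2, 251 and 231 past MDM2 and 124 and 122 opposite RGS12. IFNAR1sg DMSO libraries had 39.1 and 36.2, 88.04 and 92.4, 30.9 and 20.5 and 6.003 and 5.42 CPM in these regions. No groups overlapped, and the log2 changes were 2.42 ± 0.15, 2.60 ± 0.14, 3.24 ± 0.18 and 4.43 ± 0.23. Of 7311 members 2044 were higher and 46 lower (median 0.58), against 9.4% higher and 7.87% lower of all regions tested (median 0.01). Antisense members (1874 higher and 21 lower of 6579, median 0.59) were close in median to antisense regions under 20000 bp (1640 and 81 of 8633, median 0.53). With library sizes set to the members' own totals the counts over all members were 558 and 204. In either direction 2090 members were called, against 17.3% of all regions, with 815 called without IFNAR1sg MPS1i replicate 2, 837 without IFNAR1sg DMSO replicate 2 and 1168 without IFNAR1sg DMSO replicate 1. Of the 1252 members higher with MPS1i in SCR, 924 were also called higher in IFNAR1sg, 73.8% of the SCR calls and 45.2% of the IFNAR1sg calls, from separate control libraries. Of those called lower, 25 were shared, 20.8% of the 120 in SCR and 54.3% of the 46 in IFNAR1sg.

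The difference between genotypes in the MPS1i change was called in 4 members (80 without SCR DMSO replicate 1, 2 with a larger change in SCR and 78 with a smaller one), where 0.0516% of all regions had a larger change in SCR and 0.0112% a smaller one (0.0628% in either direction). Past RIGI the change was larger in SCR by 1.23 ± 0.20 (adjusted p = 0.00055), with 593 and 514 CPM in SCR MPS1i and 217 and 186 in IFNAR1sg MPS1i. That call was not made with library sizes set to the members' own totals (1.39, adjusted p = 0.057) or with no filter (1.07, adjusted p = 1.00, edgeR). In the other 3 the difference was negative. A larger or smaller change in SCR is meant here and below with its sign, so a deeper fall counts as smaller. Opposite LINC00662 (chr19:27681116-27793386, plus strand) IFNAR1sg MPS1i had 60.7 and 31.3 CPM, and the other 10 libraries had 6.80 to 15.2 (-1.85 ± 0.39). Opposite MPP7, a membrane scaffold gene, IFNAR1sg MPS1i had 15.9 and 9.82 CPM, and the remaining libraries had 0.216 to 1.90 (-4.68 ± 1.05, adjusted p = 0.045). Opposite DTWD1 the difference was -2.71 ± 0.59. Without IFNAR1sg DMSO replicate 2 none of these 3 was called, with adjusted p = 0.35 opposite LINC00662, 0.16 opposite MPP7 and 0.41 opposite DTWD1 (edgeR), and leaving out several other single libraries also ended their calls. An unadjusted p under 0.05 was reached by 631 of 7311 members, beside 6033 of all 89111 regions tested. The median difference was -0.22 over tested members and -0.04 over all regions. Over members it was 0.01 without SCR DMSO replicate 2 and -0.38 without SCR DMSO replicate 1.

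With IFNb in IFNAR1sg cells few members changed, 111 higher and 9 lower of 7311, against 0.549% and 0.131% of all regions tested (0.68% in either direction). The median was 0.22. Members were higher in 1.52% and lower in 0.123%, close to the 1.39% and 0.116% of antisense regions under 20000 bp. Past RIGI the level was 139 and 126 CPM in IFNAR1sg IFNb and 39.1 and 36.2 in IFNAR1sg DMSO (1.82 ± 0.15, adjusted p = 3.6e-16). Opposite OAS1 to OAS2 it was 501 and 396 CPM against 88.04 and 92.4 (2.31 ± 0.14), and opposite MX2 35.1 and 21.1 against 2.45 and 2.07 (3.64 ± 0.27). These groups did not overlap. Of the 111 higher members, 98 were also higher with IFNb in SCR, 88.3% of the IFNAR1sg calls and 3.69% of the SCR calls. The count of all calls in IFNAR1sg was 120 with all libraries, 22 without IFNAR1sg DMSO replicate 2, 26 without IFNAR1sg IFNb replicate 1, 54 without IFNAR1sg DMSO replicate 1, 193 without SCR DMSO replicate 1 and 197 without SCR DMSO replicate 2.

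The signed change with IFNb was higher in SCR than in IFNAR1sg in 684 members and lower in 91. Of all regions tested, 5.11% and 7.06% were called so (12.2% in either direction). The members called were 9.36% and 1.24% of those tested, beside 7.10% and 1.93% of antisense regions under 20000 bp. Past RIGI the difference was 2.78 ± 0.21, opposite OAS1 to OAS2 2.38 ± 0.19, opposite IFIT1 3.08 ± 0.31 and opposite AIDA 2.85 ± 0.25 (largest adjusted p = 8.2e-12). The difference was negative in the MSTA region of chromosome 18 (-1.52 ± 0.25), opposite CASTOR2 (-1.48 ± 0.25), opposite KCNN1 (-1.57 ± 0.27) and past ATPSCKMT (-0.998 ± 0.18). On chromosome 18 this was a larger fall in SCR (-1.84) than in IFNAR1sg (-0.32). Without scaling factors the counts turned round, to 232 higher and 305 lower in SCR. In either direction 775 were called, against 388 without SCR IFNb replicate 2 and likewise without IFNAR1sg IFNb replicate 2, 439 without SCR IFNb replicate 1, 448 without IFNAR1sg DMSO replicate 2, 468 without SCR DMSO replicate 1 and 516 without IFNAR1sg DMSO replicate 1.

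In DMSO few members were called between the genotypes: 1 was higher in IFNAR1sg and 23 lower, against 0.0135% and 0.064% of all regions (0.0774% in either direction). Members were nonetheless shifted as a set, with a median of -0.26 against 0.00 over all regions tested. That median was -0.04 without SCR DMSO replicate 2 and -0.44 without SCR DMSO replicate 1. An unadjusted p under 0.05 was reached by 1232 of 7311 members, beside 5996 of all 89111 regions tested. Opposite SMOX the level was 1293 and 1090.5 CPM in IFNAR1sg DMSO and 1922 and 2476 in SCR DMSO (-0.88 ± 0.12, adjusted p = 1.7e-05), without overlap. That call was not made without IFNAR1sg DMSO replicate 2 (adjusted p = 0.24). The regions opposite SQLE, the squalene epoxidase gene (-0.97), opposite ADAT1 (-1.04) and opposite NIBAN1 (-1.16) were not called without SCR DMSO replicate 2, where their changes were -0.42, -0.48 and -0.79. The member called higher lay in the ribosomal RNA gene arrays of chromosome 21 (chr21:8438551-8466185, minus strand), with 441 and 828 CPM in IFNAR1sg DMSO and 318 and 313 in SCR DMSO (1.01). Without IFNAR1sg DMSO replicate 2 its change was 0.48 and was not called, and near-identical copies make its count uncertain. Without SCR DMSO replicate 1 the count of calls was 426, and without IFNAR1sg DMSO replicate 2 it was 0, against 24.

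Interferon-stimulated genes stood opposite 43 members, all tested, which faced 41 genes. With MPS1i 38 of the 43 were higher in SCR and 35 in IFNAR1sg, with IFNb 43 in SCR and 26 in IFNAR1sg, and none was lower in any of the 4. In that order, 9.55%, 9.4%, 15% and 0.549% of all regions tested were higher. Without scaling factors 1 of the 43 was lower with MPS1i in IFNAR1sg, and the counts of higher members among them were 37, 35, 40 and 25. The median changes of the 43 were 2.36, 1.81, 3.67 and 1.35, beside -0.03, 0.01, -0.36 and 0.00 over all regions tested. Opposite ADAR, the gene of an enzyme that edits double-stranded RNA (chr1:154581891-154631760, plus strand), SCR MPS1i had 741 and 891 CPM, SCR IFNb 1419 and 1543 and SCR DMSO 229 and 313. Both treated groups lay above DMSO, by 1.59 ± 0.14 and 2.45 ± 0.14. Opposite RSAD2, the viperin gene, the changes were 3.20 ± 0.59 and 5.41 ± 0.51. Opposite SAMHD1, a dNTPase, the change was 0.06 with MPS1i in SCR (adjusted p = 0.88) and 0.89 ± 0.22 with IFNb, not called without scaling factors. The opposite genes' own non-exon regions were called higher in 41 of 41 genes with MPS1i in SCR, 41 with IFNb in SCR, 37 with MPS1i in IFNAR1sg and 33 with IFNb in IFNAR1sg. Over all 6268 antisense members with both measured, the gene opposite was called in either direction in 3366, 4328, 3305 and 104, in that order. The difference in the IFNb change between genotypes was called in 37 of the 43, all with a larger change in SCR, against 5.11% of all regions. The difference in the MPS1i change was called in 0 of the 43 (median 0.42), where 0.0628% of all regions were called in either direction.

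At RIGI the strands could be set side by side, because the plus-strand region opposite it (chr9:32455173-32526343, plus strand) began just past ACO1. That region had 40.5 and 66.9 CPM in SCR MPS1i, 122 and 140.3 in SCR IFNb and 49.2 and 39.5 in SCR DMSO. It was higher with IFNb (1.56 ± 0.19, adjusted p = 1.7e-10) and was not called with MPS1i (0.29 ± 0.19, adjusted p = 0.29). Opposite MDM2 (chr12:68808095-68840108, minus strand) a region had 78.5 and 112 CPM in SCR MPS1i and 52.98 and 56.5 in SCR DMSO (0.80 ± 0.18), beside 2.76 ± 0.18 past its end.

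Of 9 members opposite p53 targets, 2 were higher with MPS1i in SCR and 5 in IFNAR1sg, with none lower and medians of 0.42 and 0.96. Of all tested members 17.1% and 28.0% were higher in these comparisons, and of all regions 9.55% and 9.4%. With library sizes set to the members' own totals none of the 9 was called with MPS1i in either genotype. With IFNb in SCR 1 was higher (median 0.21), and without scaling factors 1 was higher and 1 lower (median -0.28). In SCR they faced MDM2 and RRM2B, a ribonucleotide reductase subunit gene. In IFNAR1sg they faced these and TNFRSF10B, SPATA18 and PPM1D, a p53-induced phosphatase gene (2.12). Of 27 members opposite genes of mitosis and the cell cycle 25 were tested, and 2 were lower with MPS1i in SCR, opposite MKI67 (-0.57 ± 0.20) and opposite KIF4A (-1.41 ± 0.47), with a median of -0.45. In this comparison 1.64% of all tested members were lower (median 0.35), and 7.97% of all regions (median -0.03). With library sizes set to the members' own totals 6 of the 25 were lower (median -0.75). With IFNb in SCR 10 of them were higher and none lower (median 0.65, beside 0.64 over all tested members), where 36.3% of all tested members and 15% of all regions were higher, while with library sizes set to the members' own totals 0 were higher and 1 lower (median -0.06). With MPS1i in IFNAR1sg 1 was higher and 1 lower, and with library sizes set that way 0 and 9. There 28.0% of all tested members were higher and 0.63% lower under TMM scaling, and 9.4% and 7.87% of all regions. All 3 members opposite NF-kB genes were higher with MPS1i in SCR, opposite SOD2 (1.79 ± 0.15), NFKB1 (1.26 ± 0.25) and RELB (0.87 ± 0.28), where 17.1% of all tested members were higher. Without scaling factors, and with library sizes set to the members' own totals, 2 of the 3 were. Of 2 members opposite lung epithelium markers, 1 was higher with MPS1i in SCR and 1 with IFNb in SCR (medians 0.61 and 0.73). In these comparisons 17.1% and 36.3% of all tested members were higher, and 9.55% and 15% of all regions. With library sizes set to the members' own totals the medians of the 2 were 0.32 and 0.03. Neither member opposite a fibroblast marker was tested, and of 3 opposite immune markers the one opposite ITGAM was tested and higher with MPS1i in SCR (2.67 ± 0.63). Past the end of IRF7, an interferon regulatory factor gene, a region opposite PHRF1 changed by 1.27 ± 0.27 with MPS1i in SCR and by 0.32 ± 0.31 with IFNb (adjusted p = 0.43).

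Across antisense members the change was compared with that of the gene opposite, for 6268 members with both measured. With MPS1i in SCR the median member changed by 0.35 and the median opposite gene by -0.28, Pearson's r across pairs was 0.44, and 317 pairs were both called higher while 220 had a higher member and a lower gene. With IFNb in SCR the medians were 0.65 and -0.86, r was 0.32, 195 pairs were both higher, and in 1357 the member was higher and the gene lower. In either direction the member was called in 2432 pairs and the gene in 4328 with IFNb, and in 1149 and 3366 with MPS1i in SCR. How many opposed pairs these totals alone would give was not tested. These pair counts hold under TMM scaling: it called 2657 of all tested members higher with IFNb in SCR, against 1098 without factors and 482 with library sizes set to the members' own totals. With MPS1i in IFNAR1sg the medians were 0.59 and -0.17 and r was 0.40. For 1006 members with a gene ending within 5 kb upstream, r with that gene's change was 0.14 with MPS1i and 0.18 with IFNb in SCR. Both members and genes come from the same libraries and scaling, several members face the same gene, and these values describe the table only.

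**Figure D5:**
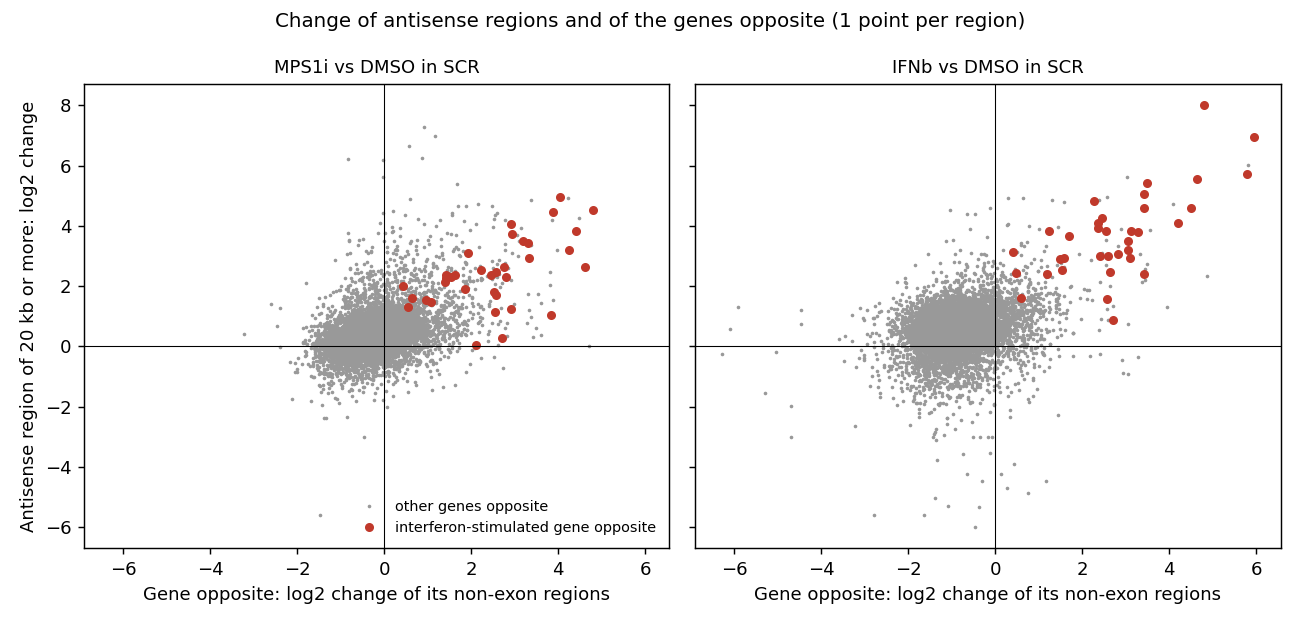
Log2 change of each tested antisense region of 20 kb or more (vertical axis) against that of the non-exon regions of the gene opposite (horizontal axis), for MPS1i (left) and IFNb (right) against DMSO in SCR, TMM scaling. Regions opposite interferon-stimulated genes (red) lie in the upper right in both panels, and for IFNb most other points lie left of 0 with a median member change of 0.65; without scaling factors the median of all tested members is 0.15.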

How the data were processed

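RNA bound by the J2 antibody was sequenced from 12 NCI-H1944 libraries (6 groups of 2) with a stranded total RNA kit, per the labels' protocols. The authors deposited raw read counts per region. Per the submitters' processing notes the tools were STAR, featureCounts, HOMER, cutadapt, Trimmomatic and Trim Galore, and the builds GRCh38 and hg38. The sources used here do not say how multi-mapping reads were counted or how regions were built.

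Regions were kept at 20000 bp or more on chromosomes 1 to 22 and X and classed against GENCODE genes; the upstream gene is the nearest one ending 5′ of the region on its strand. The counts of all regions passing filterByExpr (89111, minimum count 10) were fitted together with edgeR 4.0.16 (quasi-likelihood test, TMM scaling, R 4.3.3), and p-values were adjusted by Benjamini-Hochberg over all of them. A call is an adjusted p under 0.05. The SE of a log2 change is its size divided by the square root of F. Adjusted p-values in the text are from this fit unless another tool is named. A gene's own change was fitted on summed counts of regions under 20000 bp on its strand that share no exon base. DESeq2 1.42.0 was an alternative, beside other scalings, no filter, fits of the groups alone, a replicate block and leaving out libraries. The method was tested on simulated data.

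Regions named are the 10 higher and 6 lower with the smallest p for each treatment in SCR, the 4 higher and 4 lower for the other contrasts, the 5 longest, the 5 highest in mean CPM and in reads per kb, and those beside genes of 7 lists. Members and lists were chosen with earlier results of these data known. Some items are not reported here.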

Additional observations from a re-analysis of the deposited data

Results flagged for a closer look

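The change with a treatment differed between genotypes, by the test of the difference itself (change in SCR minus change in IFNAR1sg, log2, edgeR), in 28 results on named regions. For MPS1i the difference was -4.68 opposite MPP7, -2.71 opposite DTWD1, -1.85 opposite LINC00662 and 1.23 past RIGI. For IFNb the change was larger in SCR past RIGI (2.78) and opposite IFIT1 (3.08), TRIM22 (3.10), OAS3 (2.38), OASL (2.89), MX2 (3.30), CMPK2 (2.93), IFI44L (1.83) and AIDA (2.85). It was also larger opposite PKM (0.67), IGFBP4 (0.59) and ESRRG (2.36), and none of those 3 was called without scaling factors, where they were 0.26, 0.17 and 1.94. In the ribosomal RNA arrays of chromosome 21 a region starting at 8394341 had 1.29 and one starting at 8438551 had 1.13. Neither was called without IFNAR1sg DMSO replicate 2, where they were 0.96 and 0.60.

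For IFNb the difference was negative opposite AQP11 (-1.25), KCNN1 (-1.57), EYS (-1.24) and CASTOR2 (-1.48) and past GPSM2 (-1.18) and ATPSCKMT (-0.998). It was also negative in the MSTA regions of chromosomes 13 (-1.98), 18 (-1.52) and 22 (-0.84) and in an intergenic region of chromosome 1 (-0.90). A negative difference can be a larger fall in SCR, as on chromosome 13 (-2.91 in SCR and -0.93 in IFNAR1sg). In the MSTA region of chromosome 21, which is not among those 28, the difference was -0.90 (adjusted p = 0.025, edgeR); it is given because the other 3 MSTA regions were named. The call on chromosome 1 was not made without IFNAR1sg IFNb replicate 2 (-0.73). All of the IFNb differences rest on the SCR IFNb libraries, which stood apart in the number of regions with reads, and the part of that in these differences was not tested.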

How the results depend on the processing

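Counts of members called were 1372 for MPS1i in SCR, 2862 for IFNb in SCR, 2090 for MPS1i in IFNAR1sg, 120 for IFNb in IFNAR1sg, 24 between genotypes in DMSO, and 4 and 775 for the differences in the MPS1i and IFNb changes. In that order, no filter gave 507, 921, 919, 50, 2, 2 and 134. Library sizes set to the members' own totals, chosen after seeing the data, gave 787, 1333, 762, 33, 1, 0 and 385. The Wald test of DESeq2 gave 733 and 961 for MPS1i in SCR and in IFNAR1sg and 14 between genotypes, and no factors gave 1714 for IFNb in SCR. For IFNb in IFNAR1sg, between genotypes and for the MPS1i difference, the fit of the groups alone gave 232, 11 and 1, and leaving out both SCR IFNb libraries gave 78, 3 and 2. The replicate block gave 197, 81 and 11 for these 3, and 1450, 2952, 2229 and 887 for the others. The difference between replicates 1 and 2 had correlations of -0.054 to 0.085 between groups over all regions tested. Those regions had a median of 145 reads over 12 libraries, and count noise can hold such correlations near 0. They therefore cannot show whether the replicate numbers pair the libraries. Leaving out each library gave 642 to 1419, 1714 to 3015, 815 to 2243, 22 to 197, 0 to 426, 1 to 80 and 388 to 1142.

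With library sizes set to the members' totals, 4 values turned round: with IFNb in SCR opposite IGFBP4 (-0.013), CPLX2 (-0.34) and STS (-0.043), and with MPS1i in IFNAR1sg opposite ENO1 (-0.094). CPLX2 also turned round without factors (-0.11). The cause was not tested. Of 286 results on named regions the block ended 0 calls, no factors 20 besides the turned one, DESeq2's Wald test 27 and no filter 79.

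With 2 libraries a group the spread is poorly known, and 3309 members were too shallow to test. The balance of higher and lower calls depends on scaling. Near-identical repeats, strand assignment and the missing input RNA limit what a level means.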
